A study of Mus musculus with 2 samples.

Results

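The SLC25 carriers are the transporters of the mitochondrial inner membrane. Genes were taken as members where a protein-coding mouse gene had a symbol beginning Slc25a and a number, or was Ucp1, Ucp2 or Ucp3. Slc25a37 and Slc25a28, the mitoferrins that bring iron into mitochondria, were left out by the rule. This gave 48 genes of the 43346 Ensembl genes in the tables, and every one of them had a row in both libraries. Paired-end reads of poly(A) RNA came from 2 libraries, which form 1 group. The cells were primary erythroblasts of mouse fetal liver at embryonic day 14.5, taken by the erythroid surface antigen Ter119 from male and female embryos pooled together. No treatment or genetic change is named in the labels, and there is no second group to compare them with. Both libraries carry the same donor entry but separate biosample entries, so the spread between them may be in part technical.

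Carriers of this family share a fold built from a repeated unit of membrane-spanning helices, and most work as exchangers: one metabolite enters the matrix as another leaves. They set which nucleotides, phosphate, acids, amino acids and cofactors reach the enzymes inside. In a red cell precursor the matrix hosts the first and last steps of heme synthesis, so glycine and iron have to cross the inner membrane. Carrier proteins are made in the cytosol and are inserted by the TIM22 machinery of the inner membrane.

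Levels are given in TPM (transcripts among a fixed sum equal in both libraries), which correct for transcript length and so can be compared between genes. Globin transcripts filled 86.0% and 84.4% of the TPM in libraries 1 and 2, so all other genes shared the rest of the fixed sum. A modest TPM could still stand for many reads, as Slc25a44 at 1.24 TPM in each library had 412 and 318 assigned. Expected counts, the quantifier's estimates after dividing reads that match several genes, summed when rounded to 51190552 and 44256272, and a count of 0 allows at most 3 counts, or 0.0590 and 0.0673 CPM (counts scaled to the same library size). This limit and the intervals below cover counting error alone. The 9 erythroid markers examined, among them Klf1, Gata1, Alas2 and the band 3 gene Slc4a1, were at 1 TPM or more in both libraries. Markers of other cells of the fetal liver were present at low summed levels. These were 16.2 and 19.1 TPM for 10 hepatocyte genes (3 at 1 TPM or more in both libraries), 13.3 and 20.9 TPM for 8 macrophage genes (4), 9.74 and 11.1 TPM for 6 neutrophil genes (3), and 11.2 and 14.4 TPM for 6 megakaryocyte genes (2). None of those markers was at 0 counts in both libraries, and the leukocyte gene Ptprc stood at 0.02 and 0.05 TPM. The part of such cells in the carriers of low level was not tested.

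A few carriers held most of the family signal. The family summed to 1662 and 2007 TPM, which was 1.24% ± 0.0707 (SD, n = 2) of the TPM outside the globins and 0.183% ± 0.0244 of all TPM. Ucp2 and Slc25a39 together held 94.1% ± 0.225 of the family TPM, and with Slc25a38 the share was 95.8% ± 0.237. With transcripts of complete coding sequence alone, Slc25a3 replaced Slc25a38 as the third member by the share averaged over both libraries. Slc25a3 was the higher of the 2 in library 1, at 20.9 against 13.0 TPM. In library 2 Slc25a38 was the higher, at 28.4 against 20.7 TPM. The 3 highest then held 73.5% of the family level, and the family share outside the globins was 0.248%. With the length of the longest coding transcript these were 89.0% and 0.559%. The other 46 members summed to 95.4 and 121.6 TPM once Ucp2 and Slc25a39 were set aside. In bulk RNA, a low level in every cell and a high level in few cells cannot be told apart.

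Of the 48 members, 14 (29.2%) were at 1 TPM or more in both libraries, against 20% of the 21474 protein-coding genes. At 10 TPM or more in both libraries there were 5 members, 10.4% of them, against 5.84% of protein-coding genes. The median over the members of the mean TPM was 0.178, against 0.02 over all protein-coding genes. Below 1 TPM in both libraries were 32 members, and 2 more, Slc25a12 and Slc25a22, reached 1 TPM in library 2 alone. No read was assigned in either library to 7 members, 14.6% of them, against 35.2% of protein-coding genes. The median GC content was 55.6% for the 14 detected members and 50.2% for the others, and the corresponding medians for protein-coding genes at and below 1 TPM were 53.3% and 48.7%.

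**Figure D1:**
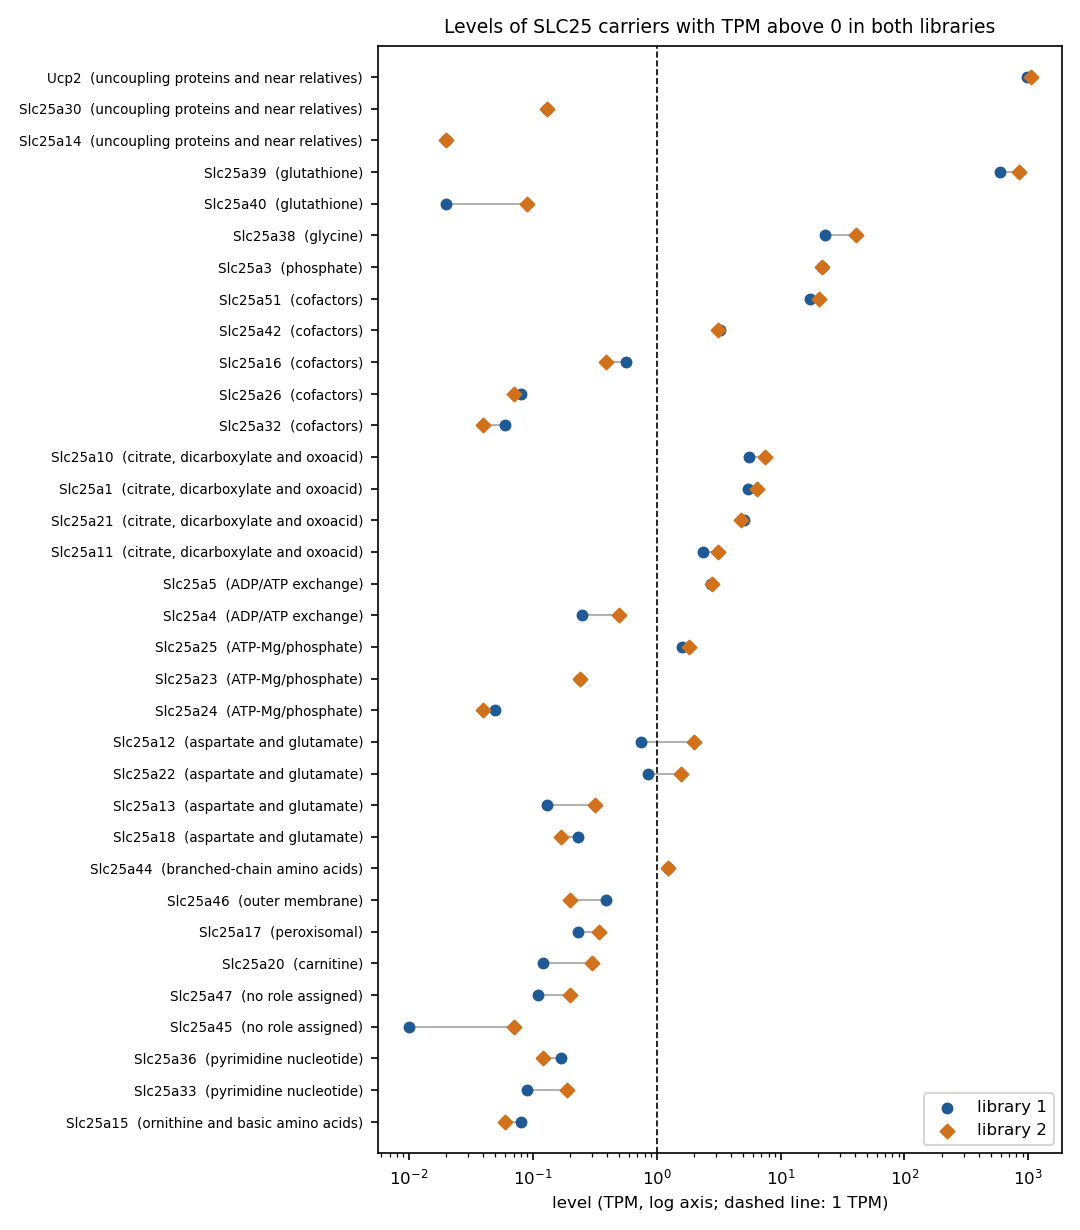
Level of each carrier in TPM (log axis) in library 1 (circles) and library 2 (diamonds), for members above 0 TPM in both libraries, grouped by what they carry; the dashed line marks 1 TPM. Ucp2 and Slc25a39 stand far above the rest, Slc25a38, Slc25a3 and Slc25a51 form a middle group, and Slc25a10 is the next at 5.57 and 7.45 TPM.

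Ucp2 and Slc25a39 are shown with a close relative of low level each, Ucp3 and Slc25a40, because each pair spans nearly the full range of the family. The sequences are the bases before each gene's start in the RefSeq table of build GRCm38.p6, cut back to the longest stretch outside annotated exons, 5′ to 3′ on the gene's strand. Capitals mark matches on either strand to CCNCNCCC, a pattern that holds the CACCC-type sites bound by Klf1; overlapping matches merge.
Ucp2 (chr7:100493108-100493336, + strand): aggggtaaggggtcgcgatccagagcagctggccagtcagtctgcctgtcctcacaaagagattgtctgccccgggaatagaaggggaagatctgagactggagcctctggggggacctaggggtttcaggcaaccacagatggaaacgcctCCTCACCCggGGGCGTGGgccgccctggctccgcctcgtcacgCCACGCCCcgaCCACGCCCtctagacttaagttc
Ucp3 (chr7:100472741-100472989, + strand): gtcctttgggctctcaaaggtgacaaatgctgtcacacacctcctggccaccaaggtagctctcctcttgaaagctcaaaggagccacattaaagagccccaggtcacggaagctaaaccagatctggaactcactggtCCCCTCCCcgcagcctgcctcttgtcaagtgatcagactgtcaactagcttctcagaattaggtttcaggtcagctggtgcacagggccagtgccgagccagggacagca
Slc25a39 (chr11:102407545-102407767, - strand): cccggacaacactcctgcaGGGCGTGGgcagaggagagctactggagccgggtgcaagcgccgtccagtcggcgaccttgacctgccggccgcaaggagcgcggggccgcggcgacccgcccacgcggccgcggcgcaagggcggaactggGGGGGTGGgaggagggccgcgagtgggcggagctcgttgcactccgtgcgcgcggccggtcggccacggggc
Slc25a40 (chr5:8422717-8422837, + strand): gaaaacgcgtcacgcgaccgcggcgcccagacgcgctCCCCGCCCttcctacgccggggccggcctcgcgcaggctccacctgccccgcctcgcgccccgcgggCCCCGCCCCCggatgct

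The stretches hold 4 matches for Ucp2 in 229 bases, 1 for Ucp3 in 249, 2 for Slc25a39 in 223 and 3 for Slc25a40 in 121. The GATA words AGATAA and TGATAA were searched on both strands too, and none of the 4 stretches holds either. The CpG dinucleotides number 13 for Ucp2, 3 for Ucp3, 32 for Slc25a39 and 22 for Slc25a40. Over the whole window of 250 bases, an entry was found for 38 of the 48 members. CCNCNCCC occurs in 26 of these 38, which are 10 of the 11 detected members with an entry and 16 of the 27 others, against 48.5% of the 27025 genes in the table. A gene with several promoter entries, as 7 of the 38 members have, was counted where any entry held the match. A GATA word of either form occurs in 3 of the 38, against 18.8% of those genes. The median number of CpG, from the entry with the most for each gene, was 18 in the detected members, 12 in the others and 6 over all genes of the table. No such share was taken over detected genes alone, so the split of members by detection has no background of its own. The match counts were not adjusted for CpG content, and its part in them was not tested. A match is a run of letters and not a binding site, and binding was not measured here.

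Among the uncoupling proteins and their near relatives, 1 of 6 members was detected, and by the TPM of the gene it was the highest carrier. By protein-coding transcripts it stood at 0.492 times the level of Slc25a39. Ucp2, which exports acids of the citric acid cycle in exchange for phosphate, had levels of 979 and 1048 TPM (1013 ± 48.8, SD, n = 2). By this TPM of the gene it ranked 17th among all protein-coding genes, on 55881 and 52729 counts. Its protein-coding transcripts alone stood at 315 and 366 TPM, and no rank was taken by that measure. Ucp3, known from skeletal muscle, had 0 and 3 counts, although its annotated end lies 6905 bases before the start of Ucp2 on chromosome 7. Ucp1, the heat-producing carrier of brown fat, and Slc25a27 had 0 counts in both libraries. Slc25a30 stood at 0.13 TPM in each library, and Slc25a14 had 3 and 1 counts.

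Glutathione carriers showed the same pattern of one gene near the top and its relative near the floor. Slc25a39, which brings glutathione into the matrix, stood at 588 and 838 TPM (713 ± 176, SD, n = 2), with 41637 and 45619 counts, and ranked 31st among protein-coding genes. Slc25a40, its closest relative, had 4 and 19 counts, or 0.02 and 0.09 TPM.

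The glycine carrier came next. Slc25a38 supplies the matrix with glycine for the first step of heme synthesis, and its loss causes a congenital sideroblastic anemia in people. Its level was 22.8 and 40.7 TPM (31.7 ± 12.6, SD, n = 2), on 2844 and 4270 counts. Slc25a39 was 25.8 and 20.6 times as high by TPM. Among the members not reaching 100 TPM, Slc25a38 was the highest in both libraries.

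The phosphate carrier Slc25a3, which feeds ATP synthase with phosphate, stood at 21.5 TPM in each library, on 3073 and 2365 counts. The ADP/ATP carriers, which exchange matrix ATP for cytosolic ADP, were much lower. Slc25a5, the form of dividing and many other cells, stood at 2.75 and 2.77 TPM with 292 and 220 counts. Slc25a4, the form of heart and muscle, stood at 0.25 and 0.50 TPM with 31 and 49 counts, and the germ-cell form Slc25a31 had 0 counts in both. Slc25a5 was thus 11.0 and 5.54 times as high as Slc25a4. By protein-coding transcripts the mean ratio was 32.2, as a retained-intron transcript held 76.7% and 79.0% of the TPM of Slc25a4. Slc25a3 was 7.81 and 7.74 times as high as Slc25a5. Reads of Slc25a5 may be shared with copies: 49.4% of the stretches of 31 bases in its transcripts also occur in transcripts of other genes, the most (30.4%) in the pseudogene Gm5560. The quantifier assigned 2 and 4 counts to Gm5560, and none to the copies Gm5529 and Slc25a5-ps. Among the ATP-Mg/phosphate carriers, which change the total adenine nucleotide content of the matrix, 1 of 4 was detected. This was Slc25a25, at 1.60 and 1.81 TPM. Slc25a23 stood at 0.24 TPM in each library, Slc25a24 at 0.05 and 0.04 TPM, and Slc25a41 had 0 counts.

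Cofactor carriers were detected in 3 of 6 cases. Slc25a51, the NAD carrier, stood at 17.3 and 20.5 TPM (18.9 ± 2.23, SD, n = 2), on 4987 and 4636 counts. The coenzyme A carrier Slc25a42 stood at 3.24 and 3.12 TPM. Slc25a16 reached 0.57 and 0.39 TPM, the S-adenosylmethionine carrier Slc25a26 0.08 and 0.07 TPM, and the folate carrier Slc25a32 0.06 and 0.04 TPM.

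Each of the 4 carriers of citrate, dicarboxylates and oxoacids was detected, with a summed level of 18.5 and 21.8 TPM. Slc25a10, the dicarboxylate carrier, stood at 5.57 and 7.45 TPM, and the citrate carrier Slc25a1 at 5.50 and 6.41 TPM. By the TPM of the gene the ranges of these 2 genes overlap, so their order is not settled by 2 libraries. By protein-coding transcripts Slc25a1 stood at 2.49 and 3.33 TPM, below Slc25a10 at 5.55 and 7.31 TPM. Slc25a21, the oxodicarboxylate carrier, stood at 5.09 and 4.83 TPM. Slc25a11, which exchanges oxoglutarate for malate, stood at 2.36 and 3.10 TPM.

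Amino acid carriers other than the glycine carrier were low. None of the 4 carriers of aspartate and glutamate reached 1 TPM in both libraries, although 2 did by the posterior mean TPM, a second deposited estimate. Slc25a12, which with Slc25a11 forms the malate-aspartate shuttle, stood at 0.75 and 1.99 TPM, and its relative Slc25a13 at 0.13 and 0.32 TPM. The glutamate carrier Slc25a22 stood at 0.85 and 1.57 TPM, and the related Slc25a18 at 0.23 and 0.17 TPM. For Slc25a22 the deposited intervals, 1.06 to 2.49 TPM in library 1 and 1.80 to 3.52 TPM in library 2, lie above the deposited TPM itself. The posterior mean TPM was 1.69 and 2.59 for Slc25a22 and 1.03 and 2.29 for Slc25a12. Slc25a44, which carries branched-chain amino acids, stood at 1.24 TPM in each library. The 3 carriers of ornithine and basic amino acids had at most 25 counts in a library: Slc25a15 had 25 and 16, Slc25a2 0 and 3, and Slc25a29 4 and 0.

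The remaining members were all below 1 TPM in both libraries. Slc25a46, an outer membrane protein tied to mitochondrial shape, stood at 0.39 and 0.20 TPM. Slc25a17 of the peroxisome stood at 0.23 and 0.34 TPM, and the carnitine carrier Slc25a20 at 0.12 and 0.30 TPM. The pyrimidine nucleotide carriers Slc25a36 and Slc25a33 stood at 0.17 and 0.12 TPM and at 0.09 and 0.19 TPM. Of the 8 members given no role here, Slc25a47 was the highest at 0.11 and 0.20 TPM, followed by Slc25a45 at 0.01 and 0.07 TPM. Slc25a48 had 5 and 0 counts, Slc25a35 1 and 0, and Slc25a53 0 and 1, while Slc25a34, Slc25a43 and Slc25a54 had none. Over the 14 detected members, 4 of the 13 neighbouring pairs in the order of mean level overlapped between libraries, among them Slc25a10 with Slc25a1 and Slc25a5 with Slc25a11. The 5 highest members did not overlap with their neighbours.

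Most of the TPM of the 2 leading carriers fell on short or partial transcripts. Transcripts are named and typed here as in GENCODE M21. Protein-coding transcripts held 59.0% and 64.8% of the family TPM, and those with a complete coding sequence held 12.8% and 14.0%. For Ucp2 the leading transcript by TPM was Ucp2-208, a noncoding processed transcript of 464 bases. It held 67.0% and 61.6% of the gene's TPM but 36.9% and 30.6% of its counts. The coding transcript Ucp2-204, 742 bases with an incomplete coding sequence, held 26.9% and 27.8% of the TPM. Ucp2-202, 3988 bases with the complete coding sequence of 927 bases, held 5.25% and 7.16% of the TPM and 34.6% and 41.7% of the counts. Its own level was 51.3 and 75.0 TPM.

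The short transcript lies mainly inside the long one: 407 of the 464 bases of Ucp2-208 are in exons of Ucp2-202. Its last exon of 57 bases is in no exon of a coding Ucp2 transcript, and is shown because it is the sequence that sets this transcript apart from the coding ones (mm10, + strand).
Ucp2-208 last exon (chr7:100498569-100498625): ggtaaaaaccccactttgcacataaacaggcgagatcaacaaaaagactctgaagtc

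For Slc25a39 the leading transcript was Slc25a39-205, 728 bases with an incomplete coding sequence, at 59.1% and 64.1% of the TPM. Each of its 728 bases lies in exons of Slc25a39-201. The transcripts with a complete coding sequence, Slc25a39-201 and Slc25a39-202, stood at 48.9 and 38.2 TPM and at 36.1 and 71.2 TPM. The choice of transcripts also sets the order of the 2 leading genes. Ucp2 was 1.66 and 1.25 times Slc25a39 by the TPM of the gene, 0.541 and 0.443 times by protein-coding transcripts, and 0.604 and 0.686 times by transcripts with a complete coding sequence. Both genes stayed above the other members in both libraries by each of these measures: by complete coding transcripts Slc25a39 stood at 85.0 and 109 TPM and Ucp2 at 51.3 and 75.0 TPM, and the next were Slc25a3 at 20.9 and 20.7 TPM and Slc25a38 at 13.0 and 28.4 TPM.

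**Figure D2:**
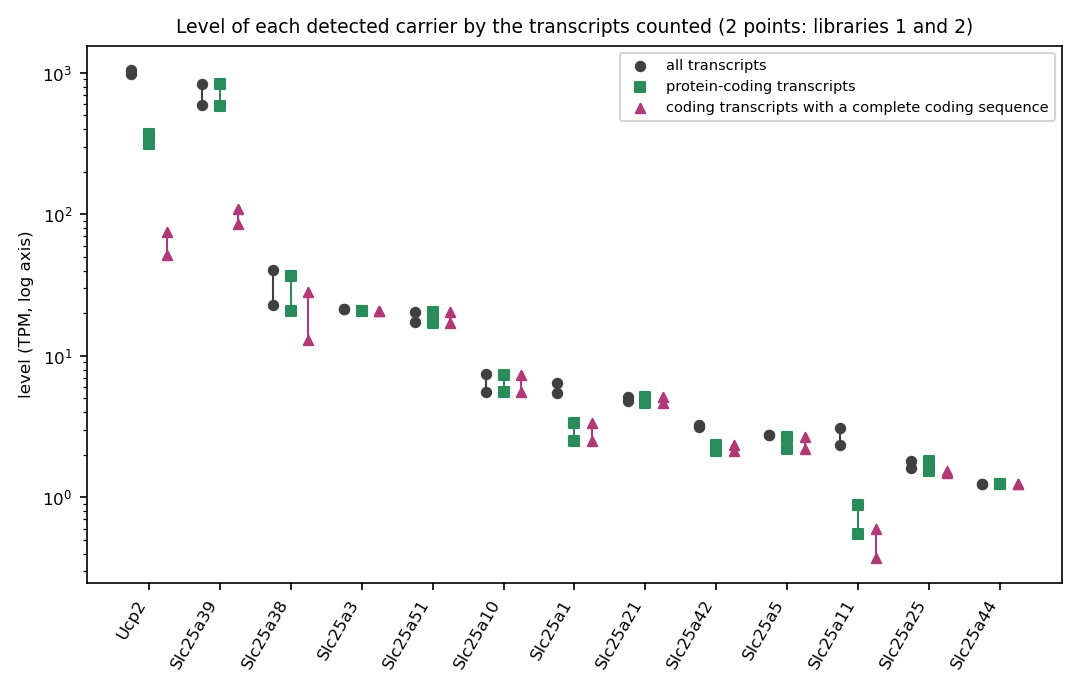
Level in TPM (log axis) of detected carriers from all transcripts (circles), from protein-coding transcripts (squares) and from coding transcripts with a complete coding sequence (triangles), with a point for each library joined by a line. Ucp2 falls below Slc25a39 once noncoding transcripts are set aside, Slc25a11 falls below 1 TPM, and Slc25a3, Slc25a51 and Slc25a10 hardly move.

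Slc25a38 was carried mainly by its full-length transcript. Slc25a38-201, 1791 bases, held 56.8% and 69.9% of the TPM, and the partial Slc25a38-202 held 34.7% and 20.8%. Library 2 stayed the higher one by complete coding transcripts too. Slc25a51-202 and Slc25a51-203, which both hold a complete coding sequence of 894 bases, held 60.6% and 61.4% and 38.4% and 37.7% of that gene's TPM.

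Slc25a3 has a pair of alternative exons, and transcripts with either were assigned reads. The upstream exon is known from the form of heart and skeletal muscle, and the downstream exon from the form found in most tissues. Both exons are shown because their bases tell the forms apart (mm10, - strand). Capitals mark the bases that differ between them or have no partner.
Slc25a3 upstream exon 3 (chr10:91122207-91122331): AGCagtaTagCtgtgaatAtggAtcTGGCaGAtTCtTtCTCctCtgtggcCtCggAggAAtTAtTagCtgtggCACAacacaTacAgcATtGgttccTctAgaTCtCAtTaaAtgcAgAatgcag
Slc25a3 downstream exon 3 (chr10:91121922-91122043): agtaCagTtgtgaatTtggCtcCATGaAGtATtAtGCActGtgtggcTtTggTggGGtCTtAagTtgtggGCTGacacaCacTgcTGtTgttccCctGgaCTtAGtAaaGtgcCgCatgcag

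The exons are identical at 77 of 122 aligned bases, or 63.1%. Transcripts with the downstream exon held 73.5% and 55.1% of the gene's TPM (64.3 ± 13.0, SD, n = 2), on 2260 and 1320 counts. The transcript with the upstream exon held 23.8% and 41.2% (32.5 ± 12.3), on 599 and 811 counts. The downstream form was the higher in both libraries, and library 2 had more of the upstream form. No test was made of this difference, because the counts per transcript are estimates from reads that the forms share. The shares are of whole transcripts, and reads on the 2 exons alone were not counted. The forms also differ in length, at 1612 and 1483 bases with the downstream exon and 1341 with the upstream one.

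The 19 members that had 50 counts or more in each library kept the same leading transcript by TPM. It was not protein-coding for 4 of them. Besides Ucp2, these were Slc25a11, where a retained-intron transcript of 531 bases held 61.9% and 82.4% of the TPM, and Slc25a12 and Slc25a22. The last 2 genes were led by transcripts annotated as targets of nonsense-mediated decay, with 64.8% and 53.4% for Slc25a12 and 55.5% and 63.2% for Slc25a22. By counts the leader was protein-coding for 17 of the 19 in library 1 and for 16 in library 2. With protein-coding transcripts alone 13 members were detected, against 16.9% of protein-coding genes, and with complete coding transcripts alone 13, against 15.9%. Slc25a11 was the member lost, at 0.88 and 0.55 TPM by protein-coding transcripts.

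**Figure D3:**
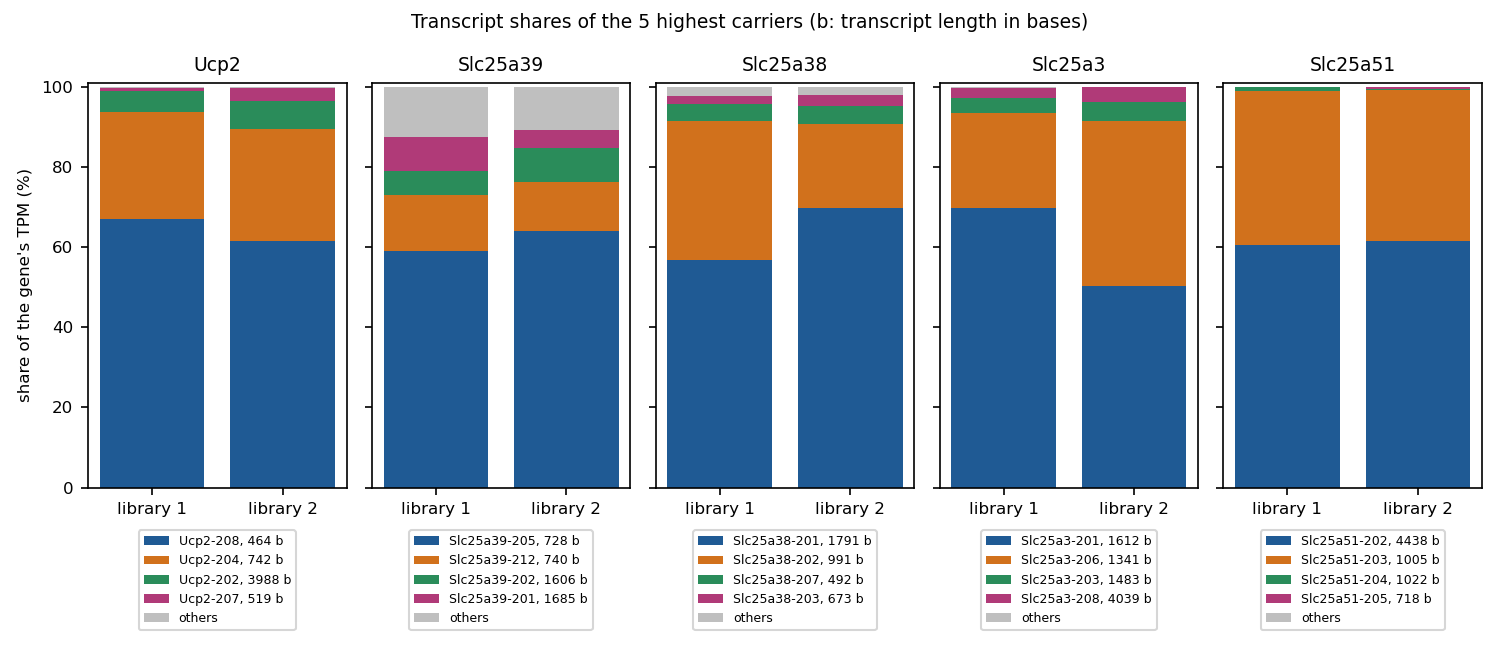
Share of each gene's TPM (percent, axis from 0) held by its 4 leading transcripts and by the others, as stacked bars for libraries 1 and 2, for the 5 highest carriers; transcript lengths in bases are in the keys. Transcripts of 464, 742 and 728 bases hold most of Ucp2 and Slc25a39, while Slc25a38, Slc25a3 and Slc25a51 are led by transcripts of 1791, 1612 and 4438 bases.

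The libraries were compared gene by gene to see where carriers differed beyond counting error. This compares 2 libraries and not conditions. Rounded counts were tested with an exact binomial test, two-sided and conditional on the sum, with Benjamini-Hochberg adjustment over 10955 genes. Of the 34 members whose counts summed to 10 or more, 17 (50%) passed an adjusted p of 0.05, against 44.9% of all genes tested. Of these, 5 were higher in library 1, where the background was 22.5%, and 12 in library 2, where it was 22.4%. Among genes with 100 or more counts in each library, 10 of 16 members passed, or 62.5%, against 58.3% of all such genes. Over these 16 members the median size of the log2 ratio was 0.20, against 0.24 over 5257 genes. The shares of members that passed in either direction lie near the background, so they are no result about the carriers. By direction, the 5 and 12 members were less even than the background of 22.5% and 22.4%. Whether that split differs from the background was not tested.

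By the exact binomial test, Slc25a38 was 1.71-fold higher in library 2, a log2 ratio of 0.78 (95% interval 0.71 to 0.85) with an adjusted p of 2.04e-110. Slc25a39 was 1.25-fold higher in library 2 (log2 ratio 0.32, 0.30 to 0.34; adjusted p = 5.60e-237). Ucp2 was higher there too, by a log2 ratio of 0.11 (0.09 to 0.12; adjusted p = 6.33e-33), and so were Slc25a10 by 0.24 (0.11 to 0.36) and Slc25a51 by 0.09 (0.03 to 0.14). Slc25a3 and Slc25a21 were the members over 1000 counts that were higher in library 1, with log2 ratios of -0.19 (-0.26 to -0.11) and -0.29 (-0.42 to -0.17). TPM and counts did not always differ alike. The TPM of Slc25a3 was 21.5 in both libraries although its counts differed, and that of Slc25a12 was 0.75 and 1.99 with a count ratio of 1.27. In Slc25a12, a transcript of 6351 bases held 35.2% and 7.03% of the TPM, and one of 994 bases held 0% and 39.6%.

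The largest ratios belonged to members of few counts. Slc25a45 had 2 and 11 counts, a log2 ratio of 2.65 with a 95% interval from 0.45 to 5.87, and Slc25a40 a ratio of 2.44 (0.85 to 4.45). Slc25a20 followed at 1.19 (0.38 to 2.04). In the other direction, Slc25a46 had 160 and 64 counts, a log2 ratio of -1.13 (-1.57 to -0.70), and Slc25a16 one of -0.64 (-1.17 to -0.13). The globin share, depth and macrophage markers given above also differed between libraries, and their part in these differences was not tested. Adjusted for GC content, 14 members passed (41.2% of those tested, against 42.5% of all genes), of which 12 were among the 17; Ucp2, Slc25a51, Slc25a10, Slc25a21 and Slc25a16 no longer passed, and Slc25a36 and Slc25a42 passed instead.

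**Figure D4:**
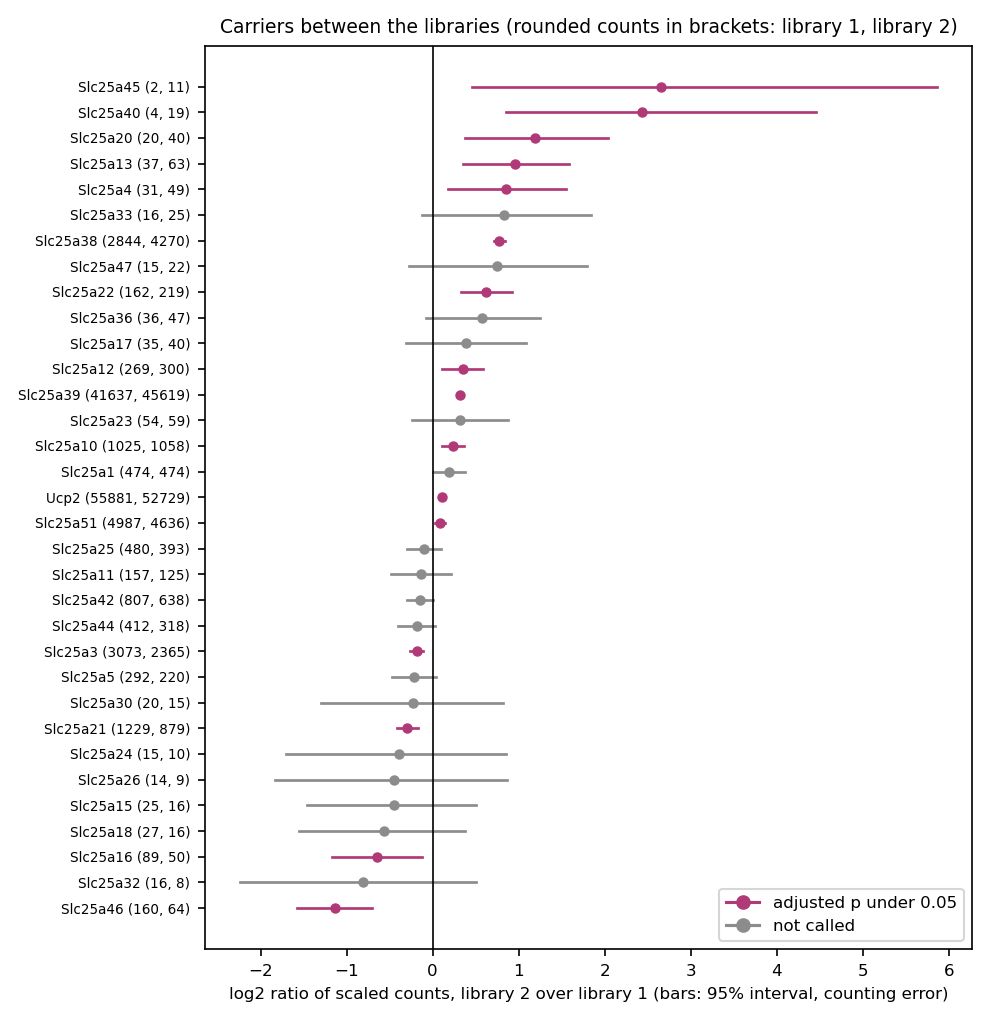
Log2 ratio of scaled counts in library 2 over library 1 for tested carriers, with 95% intervals that cover counting error; coloured points passed an adjusted p of 0.05 and rounded counts of both libraries stand in brackets. Slc25a38 has the largest ratio among members over 1000 counts, and the widest intervals belong to members under 20 counts in a library.

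Genes of the machinery that inserts carriers spread over a wide range, with a median of the mean TPM of 1.375. None of them reached the level of Ucp2 or Slc25a39. Of 13 genes of the carrier import route, 8 (61.5%) were at 1 TPM or more in both libraries, against 20% of protein-coding genes. By the TPM of the gene the highest was Timm10b, a small TIM of the intermembrane space, at 28.5 and 50.9 TPM. The outer membrane receptor Tomm22 followed at 18.4 and 19.7 TPM, and the small TIM Timm13 at 13.0 and 16.3 TPM. By protein-coding transcripts Timm10b stood at 6.55 and 17.0 TPM, below Tomm22 at 18.4 and 19.7 TPM. Timm22, the insertion channel itself, stood at 0.79 and 1.24 TPM, and Agk, a further subunit of that complex, was the lowest at 0.10 and 0.21 TPM. Between the libraries 6 of the 13 differed, with 3 higher in each, against 44.9% of all genes tested.

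Of 16 other genes of mitochondrial transport, 10 (62.5%) were detected, against the same 20%. Mpc2, a subunit of the pyruvate carrier, was the highest at 46.5 and 47.4 TPM, while its partner Mpc1 stood at 1.72 and 2.05 TPM. By protein-coding transcripts Mpc1 stood at 0.44 and 0.10 TPM, below 1 TPM in both libraries. The outer membrane channel Vdac2 stood at 16.7 and 13.9 TPM, above Vdac3 at 2.83 and 3.28 TPM and Vdac1 at 1.08 and 1.36 TPM. Mtch1, an outer membrane relative of the carriers, stood at 7.78 and 10.5 TPM. The serine carrier Sfxn1 stood at 0.84 and 0.66 TPM, and Sfxn2 was the lowest at 0.02 and 0.01 TPM. Of 14 tested, 8 differed between libraries, 6 of them higher in library 1, against 44.9% and 22.5% of all genes tested. The mitoferrin Slc25a37, left out of the counts above, stood at 226 and 202 TPM, between Slc25a39 and Slc25a38, and Slc25a28 at 2.56 and 4.06 TPM.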

How the data were processed

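Each library has a gene table and a transcript table. Reads were aligned to mm10 with GENCODE M4, per the deposited listing. Aligner, quantifier and strand setting: not given in the sources used here. Deposited expected counts divide shared reads among genes, and were rounded for the test. The deposited TPM and posterior mean TPM are corrected for length; the authors' FPKM served as an alternative. The deposited interval bounds of TPM are a signal-type value, and the deposited percent is each transcript's share of its gene's TPM. Symbols, transcript types and GC came from GENCODE M21 and a gene name table, for 42462 of 43346 genes. Library sizes were scaled by edgeR 4.0.16 (TMM, R 4.3.3), with DESeq2 1.42.0 size factors as an alternative, and the test ran in scipy 1.17.1. edgeR's biological coefficient of variation between libraries was 0.241 (9043 genes). The test was checked on simulated counts with counting error alone, so that check does not cover spread between libraries beyond counting error. Detection was set at 1 TPM in both libraries. The text gives the detected members by library (1 is not reported here), and of the library comparison the 3 widest ratios in each direction among those that passed and members over 1000 counts. The members, gene lists and named-gene rule were chosen with earlier results of these data known.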

Additional observations from a re-analysis of the deposited data

How the results depend on the processing

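The number of detected members stayed between 11 and 19 under FPKM, posterior mean TPM, CPM, other transcripts and minimums of 0.5 and 2 TPM, fell to 7 at 5 TPM, and was 14 to 16 in single libraries. The family share of 1.24% became 0.872% by expected counts, 1.04% by coding transcripts, 0.183% of all TPM and 1.32% of the TPM of protein-coding genes outside the globins. Chosen after seeing the data, it became 0.559% with the length of the longest coding transcript and 0.248% by complete coding transcripts. By the TPM of the gene outside the globins, single libraries gave 1.19% to 1.29%. The share of the 3 highest members by each measure was 89.5% by counts, 94.1% by coding transcripts and 89.0% by the longest coding length. It was 73.5% by complete coding transcripts. By the TPM of the gene it was 95.6% to 96.0% in single libraries. In place of Slc25a38, the third member was Slc25a51 by counts. By complete coding transcripts it was Slc25a3 over both libraries together, but Slc25a38 in library 2 alone. The ratio of Slc25a5 to Slc25a4 was 32.2 by coding transcripts and 32.2 by complete coding transcripts, on few counts of Slc25a4. By the TPM of the gene it was 5.54 to 11.0 in single libraries. The ratio of Ucp2 to Slc25a39 turned to 0.492 by coding transcripts, 0.528 by the longest coding length and 0.645 by complete coding transcripts, since these set aside or lengthen the short transcripts. Members that differed between libraries numbered 9 at 1.5-fold or more (26.5% of those tested, against 22.5% of all genes) and 4 at 2-fold or more (11.8% against 12.8%); 17 passed with DESeq2 or total-count scaling and the same 17 are in both. The 18 detected import and transport genes ranged from 12 to 22. The library comparison cannot leave out a library. No paired analysis was possible because there is 1 group.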

Other observations

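Several members are annotated beside or across other genes. Slc25a35 shares 27.5% of its stretches of 31 bases with other genes, mostly Rangrf on the opposite strand, and Slc25a33 shares 13.5%. With Slc25a5 these are the 3 members at 10% or more, and 17 members share none. Slc25a11 shares 7.37% with Rnf167 on the opposite strand, which stood at 24.3 and 37.8 TPM, but Slc25a11-201 and Slc25a11-205, with 94.6% and 97.0% of the gene's counts, have 0 bases in exons of Rnf167. Whether the authors' counting used strand is not given in the sources used here, so reads from the shared stretches may not be told apart.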
